A study of Mus musculus with 12 samples.

Results

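Long-term culture of parental Dunn cells was examined by comparing their gene expression at passage 25 (early) and passage 86 (late), with 3 arrays for each passage. Dunn is a mouse osteosarcoma cell line of low metastatic potential, and these 6 arrays are part of a series of 12 in which the other 6 hold LM8, a metastatic line selected from Dunn in mice, at passages 24 and 91. No transgene or agent is given for either line. Cells were grown in DMEM/F12 medium with fetal calf serum, late cells descended from the early stock by serial passaging, and frozen aliquots of both were thawed and passaged a few more times before RNA was taken. Each passage is thus 1 culture history, and nothing states that the 3 replicates came from separate cultures, so p-values measure the spread between these arrays, which may be technical.

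The members are all genes with a signal in these cells. The arrays were single-colour Agilent mouse arrays, on which the brightness of a spot stands for the abundance of a transcript. Each signal is given as log2 relative to the 75th percentile of its array, so that 0 is the level of a fairly bright probe and a difference of 1 is a 2-fold change. A gene was represented by its brightest probe on average and was counted when the scanner software called that probe well above background on all 3 early or all 3 late arrays. This was the case for 11112 of 20140 genes. A gene was taken as differentially expressed, or called, when limma gave a change of more than 2-fold and an unadjusted p under 0.05.

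Serial passaging selects, step by step, the cells of a culture that divide and attach best, and lines kept for long are known to lose or gain the expression of genes that growth on plastic does not require. Osteosarcoma cells are of the osteoblast lineage, which lays down a collagen matrix and mineralizes it. Of the 9 osteoblast markers with a probe, 8 were well above background on all 3 early and on all 3 late arrays (Runx2, Sp7, Alpl, Ibsp, Col1a1, Col1a2, Spp1 and Pth1r). Of markers of other cell types some were detected. Of the 9 macrophage markers with a probe, Csf1r, Itgam, Lyz2 and Fcer1g were well above background on all 3 arrays of at least 1 passage, and Ptprc, Adgre1 and Laptm5 on no Dunn array. The same held for the lymphocyte markers Cd3e and Lck, the endothelial markers Kdr and Vwf, the epithelial markers Krt14 and Cldn7 and the neuronal markers Snap25 and Syn1, while Cd3g and Cd2, Cdh5 and Tie1, Cdh1 and Krt8, and Gap43 and Nefl were on no array.

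Before any comparison, late replicate 1 and early replicate 1 stood apart. Late replicate 1 correlated with late replicates 2 and 3 at 0.919 and 0.923 over all probes, whereas those correlated at 0.986 with each other. Its probes were well above background in 59.7%, against 54.2% and 53.3% of the probes on late replicates 2 and 3. The difference lay mostly in dim probes. Over the 12334 probes that were well above background on no Dunn array, the median log2 signal was -5.74 on late replicate 1 and -8.07 and -7.92 on late replicates 2 and 3. In early cells these medians were -5.16, -7.40 and -6.46. The first replicates of both passages were on the same slide and both read dim probes high. Early replicate 1 had a median local background of 87 units, against 22.5 to 34 on the other Dunn arrays, and 39.4% of its probes were well above background, against 51.4% and 47.1% on early replicates 2 and 3. A gene counted through the early group had to be well above background on this array too. Over probes that all 6 arrays showed well above background, correlations within the late group ran from 0.963 to 0.974. Signals near the floor therefore carry a large spread, and a fall to the floor is given as a bound.

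Between the passages 791 of 11112 genes (7.12%) were differentially expressed, of which 233 (2.1%) were up-regulated and 558 (5.02%) were down-regulated. The share of up-regulated genes among them was 29.5%. It depends on the scaling and was 41.5% when arrays were centred on the probes well above background, 45.4% when spots flagged by the scanner software were kept, and 94.5% on the unscaled signals. Flagged spots left 1284 counted genes, 51 of them called, without a value on at least 1 array. The median change of all counted genes was -0.24 on the log2 scale, -0.14 with that centring and -0.08 with all spots kept, and each change below is to be read against it. Of the 791 genes, 641 were also called with that centring, 762 with the slide as a block, and 679 without late replicate 1. Without that array 936 genes were called. The call rule carries no correction for the number of genes tested, so calls are to be expected without a change. In limma 1242 of the 11112 genes had an unadjusted p under 0.05, where a share of 0.05 is expected if none changed. After Benjamini-Hochberg adjustment over all probes, 1 gene (0.009%) had an adjusted p under 0.05. When the fit was restricted to probes well above background, 191 genes (1.72%) changed over 2-fold at an adjusted p under 0.05. Of these, 39 (0.351%) went upwards and 152 (1.37%) downwards. The groups did not overlap in any of the 191 genes, against 36.2% of all counted genes without overlap. The 191 genes were selected on the same values, which favours separate groups, so the lack of overlap adds no support.

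Most down-regulated genes stayed measurable, as did most of all counted genes. Of the 558 down-regulated genes, 494 were well above background on all 6 arrays and 63 on all 3 early but not all 3 late arrays. Of the 233 up-regulated genes, 111 were well above background on all 6 arrays and 122 on all 3 late but not all 3 early arrays. Over all 11112 counted genes the split was uneven in the same way, with 9643 on all 6 arrays, 91 on all early but not all late and 1378 on all late but not all early arrays.

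The genes described first are those with the largest changes among 359 genes (3.23%) that were called, did not overlap between the groups, and moved more than 2-fold the same way on each of the 3 slides. Of these, 114 rose and 245 fell.

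The largest fall was that of Catsperz, a subunit of the sperm calcium channel CatSper. Its log2 signal was 2.88, 2.54 and 2.99 in early replicates 1 to 3 and -5.73, -5.96 and -5.71 in late replicates 1 to 3. All early arrays were bright, and all late arrays were at the background, that is, not well above it. On the log2 scale Catsperz fell by 8.61 with a standard error of 0.30, and limma over all probes gave an adjusted p = 0.00825. As a bound it was at least 273-fold lower.

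Cd99, a cell surface glycoprotein used as a marker in small round cell tumors, read 4.44, 4.49 and 4.86 in early cells and -2.63, -4.04 and -4.31 in late cells. It fell by 8.25 (standard error 0.52) and was still above background on all late arrays. Cyba, the p22-phox subunit of the NADPH oxidase, read 3.26, 3.35 and 3.36 in early cells and -1.49, -2.24 and -2.22 in late cells, and its second probe fell by 4.72. In both genes the gap between the passages was far wider than the spread within either, which the choice of the largest changes favours.

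Lxn, which encodes the carboxypeptidase inhibitor latexin, read 1.28, 0.82 and 1.39 in early cells and -4.82, -7.80 and -7.32 in late cells, at least 99.9-fold lower. Twist2, a transcription factor that restrains osteoblast maturation, read 0.25, 0.20 and 0.91 in early cells and -4.19, -8.33 and -8.07 in late cells, at least 60.9-fold lower. Late replicate 1 was the highest late array in both genes, and the groups were still separated by more than 4 log2 units. Both genes were at the background on all late arrays.

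Signalling genes were also among the largest falls. Irs2, an adaptor of the insulin and IGF receptors, read 0.20, -0.36 and 0.19 in early cells and -5.54, -5.88 and -5.47 in late cells, at least 36.5-fold lower. Rgs2, which shortens G protein signals, read 0.33, -0.14 and -0.51 in early cells and -4.09, -7.84 and -6.94 in late cells, at least 40.5-fold lower. All late arrays were at the background for both, and a second probe of Rgs2 was too dim to be counted. Col4a2 is described with the basement membrane genes. The other falls among the first 12 were Galnt12 (log2 change -7.03), a glycosyltransferase that starts O-linked sugar chains, Tdrp (-6.51), Lcn9 (-6.06) and Gm1673 (-5.43). Tdrp, Lcn9 and Gm1673 were at the background on all late arrays, and as bounds at least 21.0-fold, 42.3-fold and 10.5-fold lower. A second probe of Tdrp had a change of -1.48 and was too dim to be counted. A second probe of Galnt12 fell by 6.66.

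The rises were smaller than the falls in size. Ccnd2, the D-type cyclin that drives cells out of G1, read -1.10, -1.36 and -1.61 in early cells and 3.06, 2.92 and 2.68 in late cells, a log2 change of 4.24 (standard error 0.31). Dnali1, a dynein light intermediate chain of cilia and flagella, read -1.65, -1.88 and -1.39 in early cells and 2.91, 2.98 and 2.96 in late cells (change 4.59). Rhox5, a homeobox gene on the X chromosome known from the male germline, read -0.14, -0.18 and -0.41 in early cells and 3.25, 3.04 and 3.16 in late cells (change 3.39). Each of the 3 was well above background in both passages and had an SD of at most 0.26 within each group.

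Further rises started at or near the background. Gas7, a growth arrest gene that binds actin, read -4.49, -5.09 and -4.07 in early cells and -0.44, -0.58 and -0.30 in late cells, at least 13.4-fold higher, and its other probe rose by 3.03. Cav3, the muscle caveolin, was at least 6.47-fold higher and Itih3, which binds hyaluronan, at least 3.14-fold higher. Both of these were no longer called after normexp background correction. Nlrp4c, of the Nlrp family, read -5.61, -2.74 and -2.13 in early cells and 1.25, 1.50 and 1.52 in late cells, and both of its probes rose, the brighter by 4.91. The Nlrp4 genes are near copies of each other, and the probes may not tell them apart.

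The remaining large rises had a wide spread in early cells or a second probe that moved less. Smc4, a condensin subunit that compacts mitotic chromosomes, read -4.30, 0.17 and -3.06 in early cells and 1.51, 2.18 and 2.95 in late cells. Hapln1, the link protein that ties hyaluronan to proteoglycans in cartilage, read -3.77, -1.26 and -3.41 in early cells and 0.43, 2.34 and 1.63 in late cells. In both, early replicate 2 was the highest early array. Tmed5 (change 4.03), Eps8 (4.02) and Zfp979 (3.43) each had a second probe whose change was 0.83, 0.41 and 0.53, and the second probes of Tmed5 and Eps8 were too dim to be counted. Of the 24 genes, 16 had an adjusted p under 0.05 in the fit over probes well above background.

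**Figure D1:**
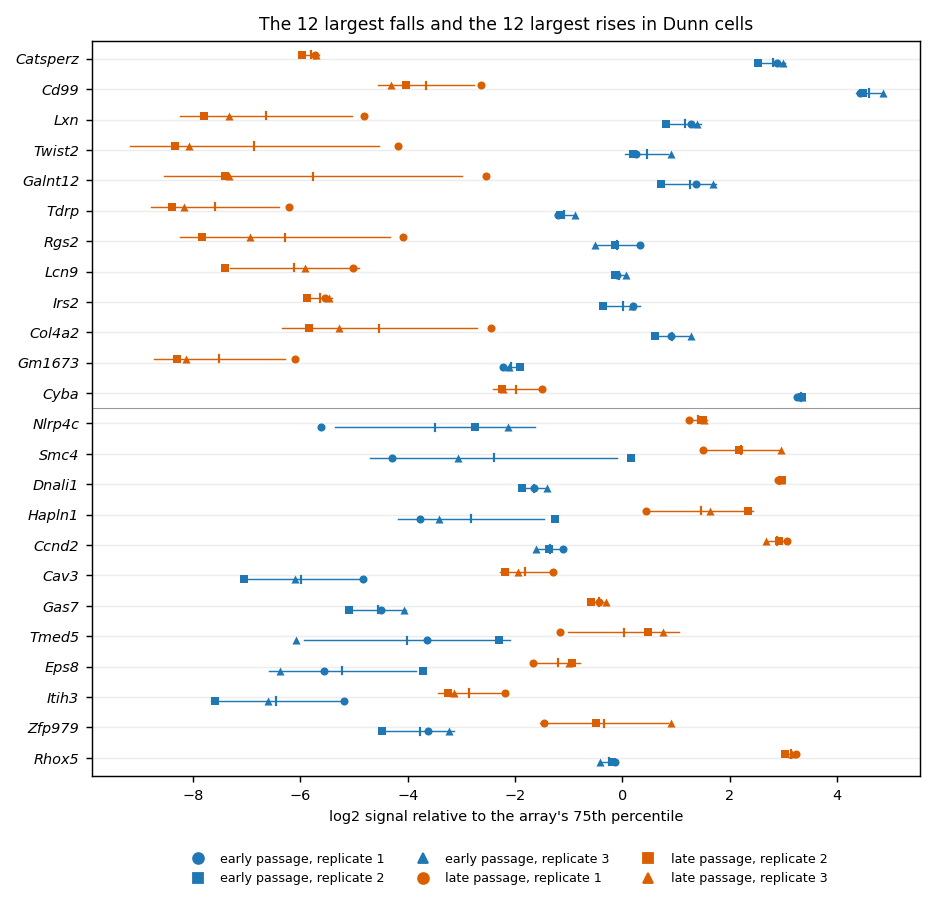
Log2 signal relative to the array's 75th percentile (x axis) of the 12 genes with the largest fall (upper block) and the 12 with the largest rise (lower block), 1 row per gene. Blue symbols are early and orange symbols late Dunn arrays, the symbol shape is the replicate, and the vertical tick and the line are the mean and SD of 3 arrays. Early and late symbols do not overlap in any row, which the rule that chose these genes required. Late replicate 1 (orange circle) is the highest late array in most of the falling genes.

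By function, 36 lists of genes were described, with 802 counted genes in all. Of these 95 (11.8%) were called, 27 upwards and 68 downwards, against 7.12% of all counted genes. The lists and their members were chosen with earlier results of these data known. Their share of calls is therefore not independent of these values. The lists differ in size and share genes. The median log2 change of each list is given with its counts, to be read beside the median of -0.24 and the 2.1% of higher and 5.02% of lower calls over all counted genes. Of the 90 called genes named by rule, 2 lost their call with the slide as a block (Notch2 and Cdc25b) and 4 lost it without late replicate 1 (Cdc25b, Sfrp4, Fosl2 and Hoxb8). The call was lost under 5 or more of 23 alternatives for 16 of them, namely Nid2, Mmp11, Itgb7, Myl9, Mgp, Sfrp4, Notch2, Hey1, Fstl3, Tgfb3, Cdc25b, Ccl9, Dnajb9, Fosl2, Shox2 and Hoxb8. Fstl1 (without early replicate 1, late replicate 2 or late replicate 3), Cyp1b1 (late replicate 2 or 3) and Smarca1 (late replicate 2 or early replicate 3) also lost it when a single array was left out.

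**Figure D2:**
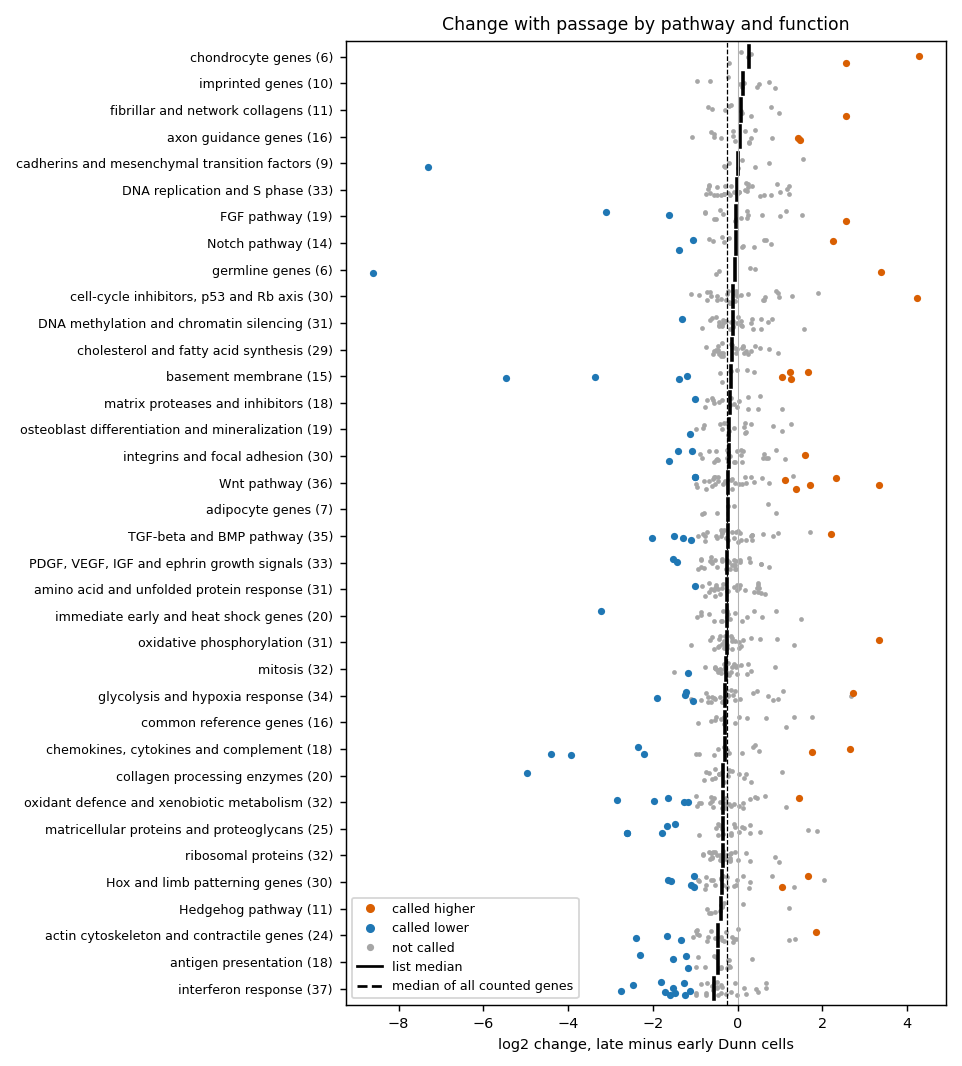
Log2 change from early to late Dunn cells (x axis) of every counted gene in 36 functional lists (rows, number of counted genes in parentheses), ordered by the median change. Orange and blue points are genes called higher and lower, grey points were not called, the black tick is the list median, and the dashed line is the median of all counted genes (-0.24). The interferon response list lies lowest, with 10 blue and no orange points.

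Of the interferon response, 10 genes were down-regulated in late cells. Interferons are secreted on viral infection and switch on genes whose products sense and destroy foreign RNA, and many cells keep a low level of this program without infection. Of 37 counted genes of the list, 10 (27.0%) were called lower and 0 higher, and the median change was -0.56. Of the 37 changes, 31 were below 0 and 28 were below the median of all counted genes (-0.24). Without late replicate 1, 13 were called lower, and with the flagged spots kept 9 were.

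Oasl2 and Oas1a, of the oligoadenylate synthetase family, had the largest falls of the list. Some members of this family make the messenger that activates RNase L. Oas1a read 1.03, 1.39 and 1.33 in early cells and -0.97, -1.91 and -0.76 in late cells, and fell by 2.46 (standard error 0.41), and its second probe fell by 1.63. Oasl2 read -1.85, -1.70 and -2.44 in early cells and -5.73, -4.78 and -3.71 in late cells, and the neighbouring gene Oasl1 fell by 1.53. The passages did not overlap in any of these genes, nor in 36.2% of all counted genes. These genes were called on the same values, so the lack of overlap adds no support.

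The RNA sensors Ifih1 and Ddx58, which recognise double-stranded RNA in the cytoplasm, fell by 1.59 and 1.13. Isg15, a ubiquitin-like protein, read 2.86, 2.95 and 3.08 in early cells and 1.75, 1.87 and 1.56 in late cells, and the protease that removes it, Usp18, fell by 1.71. The late arrays of Isg15 lay close together and all below the early ones. Rtp4, Ifi27 and the GTPase Igtp fell by 1.80, 1.48 and 1.26. Not every member moved. Irf1, a transcription factor of the pathway, read 2.51, 2.34 and 2.06 in early cells and 2.30, 2.50 and 2.54 in late cells.

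Interferon-regulated genes carry a response element in their promoter, whose core is a repeat of GAAA. The letters GAAA, any 2 bases and again GAAA were searched on both strands. They were found in 3.99% of 27025 genes with a promoter in the RefSeq table (GRCm38.p6, 300 bases per promoter, 250 of them before the start of the gene) and in 3.43% of the counted genes. Among the 10 down-regulated interferon genes, 7 had a promoter entry and 5 held the motif, and in the whole counted list it was 15 of 30. Matches may overlap. A match describes the letters only and shows no binding. The 100 bases before the start are shown for 3 of the 5 genes, those in which the match lies closest upstream of the start, 5′ to 3′ on the strand of the gene and with the matching bases in capitals. Isg15 lies on the minus strand (chr4:156200819-156200918), Oas1a on the minus strand (chr5:120907526-120907625) and Igtp on the plus strand (chr11:58199456-58199555).
Isg15: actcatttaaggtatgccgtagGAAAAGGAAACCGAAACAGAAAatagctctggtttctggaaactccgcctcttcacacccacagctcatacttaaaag
Oas1a: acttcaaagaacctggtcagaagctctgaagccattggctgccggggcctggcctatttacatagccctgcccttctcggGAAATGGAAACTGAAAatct
Igtp: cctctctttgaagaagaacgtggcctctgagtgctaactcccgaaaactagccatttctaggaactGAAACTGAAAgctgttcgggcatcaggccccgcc
In Isg15, 3 overlapping matches span bases -78 to -57 from the start, in Oas1a 2 matches span -20 to -5, and in Igtp 1 match spans -34 to -25.

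Antigen presentation genes cut cell proteins into peptides and display them on MHC class I. Of 18 counted genes 4 (22.2%) were called lower and 0 higher, with a median of -0.46. Psmb9 and Psmb8, subunits of the immunoproteasome, fell by 2.30 and 1.21, and the peptide transporter Tap1 fell by 1.52. Psmb9 read 4.40, 4.24 and 4.57 in early cells and 2.40, 1.90 and 2.01 in late cells. The class I gene H2-Q7 fell by 1.18, although class I genes are near copies that a probe may not separate. The class I light chain B2m read 3.37, 4.68 and 3.78 in early cells and 2.73, 4.32 and 3.63 in late cells, so the passages overlapped. The summed level of the macrophage markers, relative to the 75th percentile, was 34.9 to 54.3 in early and 26.2 to 32.3 in late cells. None of the 4 counted ones was called in limma (0 at an unadjusted p under 0.05), and their part in the interferon, antigen presentation and complement results was not tested.

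Tap1 and Psmb9 lie head to head and share the stretch between their starts. Among 504 pairs of counted genes on opposite strands whose promoter windows overlap, both genes were called in 2 pairs, Tap1 with Psmb9 and Col4a1 with Col4a2, and both pairs fell together. In 46 pairs 1 gene of the pair was called. Over all counted genes 7.12% were called, and whether paired genes were called together more often than others was not tested. The 225 bases between the starts of Psmb9 and Tap1 (chr17:34187331-34187555, GRCm38.p6, RefSeq) are shown on the plus strand, which is that of Tap1, because both called genes start at its ends. They hold no match to the motif above and so no capitals.
Psmb9 to Tap1: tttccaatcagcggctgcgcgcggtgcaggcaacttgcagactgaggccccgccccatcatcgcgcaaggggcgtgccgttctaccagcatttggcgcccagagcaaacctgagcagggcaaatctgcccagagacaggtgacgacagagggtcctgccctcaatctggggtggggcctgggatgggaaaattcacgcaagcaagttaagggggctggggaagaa

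Complement and chemokine genes moved in both directions. Of 18 counted genes, 2 rose and 4 fell (median -0.30). The neighbouring complement genes C2 and Cfb, which form the proteases that cleave C3 in the classical and alternative pathways, had the largest falls of the list. C2 read 3.85, 4.05 and 4.22 in early cells and -0.64, -0.45 and 0.04 in late cells, and fell by 4.39 (standard error 0.33). Cfb read 0.05, 0.08 and 0.64 in early cells and -2.36, -4.37 and -4.28 in late cells. Among chemokines, the neutrophil attractant Cxcl5 rose by 2.65, a call that was lost after normexp background correction and with the floor on dim signals. The monocyte attractants Ccl9 and Ccl2 had changes of -2.35 and -2.22. Late replicate 1 lay near the early arrays in Ccl9 and among them in Ccl2. The calls of Ccl2 and Ccl9 depended on the setting: that of Ccl2 was lost with the centring and that of Ccl9 when any array other than late replicate 1 was left out.

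**Figure D3:**
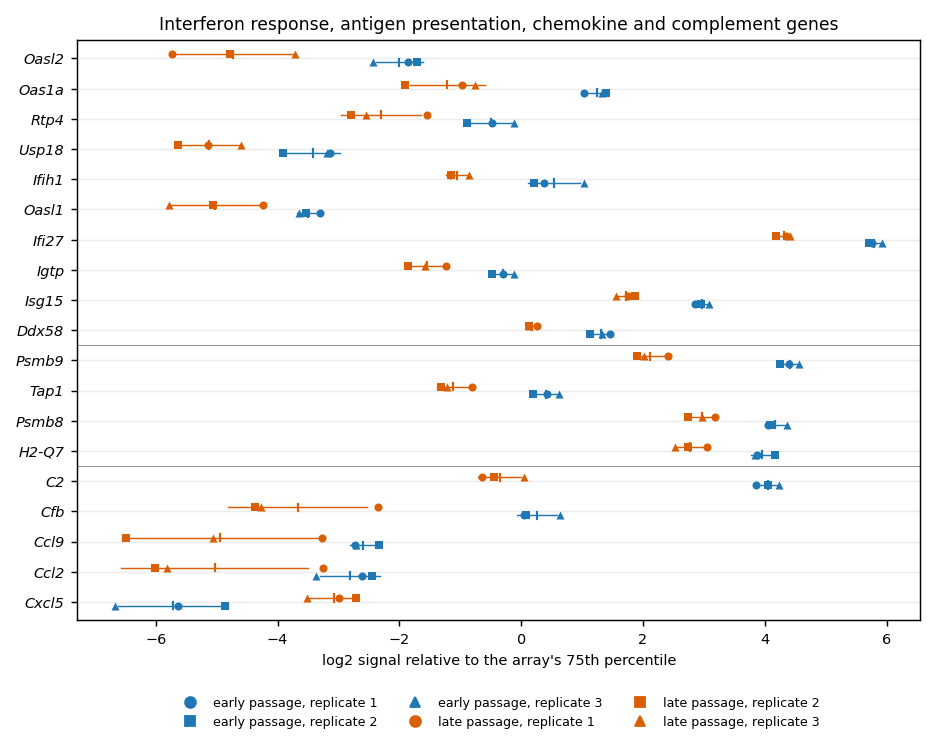
Log2 signal relative to the array's 75th percentile (x axis) of called genes of the interferon response (upper block), antigen presentation (middle) and chemokine, cytokine and complement lists (lower), with blue early and orange late Dunn arrays, the replicate as symbol shape, and mean and SD of 3 arrays. The late mean lies to the left of the early mean in every row other than Cxcl5, and in Ccl9 and Ccl2 late replicate 1 lies nearest to the early arrays.

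The basement membrane list had the largest share of calls among the lists of 10 or more counted genes, with 8 of 15 (53.3%), and they were split into 4 rises and 4 falls (median -0.16). The basement membrane is a sheet of type IV collagen and laminin tied together by nidogen and proteoglycans. The collagen IV chains fell. Col4a2 read 0.91, 0.60 and 1.28 in early cells and -2.44, -5.85 and -5.29 in late cells, and fell by 5.45 (standard error 0.94). Col4a1 read 0.50, 0.42 and 0.83 in early cells and -2.10, -3.00 and -3.27 in late cells, and fell by 3.38 (standard error 0.41). The annotated starts of these head to head genes overlap by 22 bases. Late replicate 1 was the highest late array in both genes, and Irs2, whose fall is given above, is on the same chromosome, 8.

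Laminin chains moved apart. Lamb1 read -0.85, -0.70 and 0.17 in early cells and 1.34, 0.98 and 1.24 in late cells, a rise of 1.65, whereas Lamb2 read 5.09, 4.18 and 5.14 in early cells and 3.53, 3.60 and 3.72 in late cells, and fell by 1.18. The alpha chain Lama1 rose by 1.04, and Col18a1, whose end is released as endostatin, by 1.26. The alpha chain Lama2 was well above background on no early array and was at least 1.25-fold higher in late cells, a call that was lost without late replicate 1. Nid2 fell by 1.39, a call that was lost with the centring. The gamma chain Lamc1 and the proteoglycan Hspg2 had changes of -0.16 and -0.41 and were not called. Of the 9 endothelial markers, Kdr and Vwf were well above background in both passages, and Vwf fell by 1.27. The summed level of that list was 8.74 to 14.6 in early and 4.52 to 5.31 in late cells, and its part in the basement membrane result was not tested. No marker of macrophages, lymphocytes, epithelium or neurons was called in limma.

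Of 25 counted matricellular proteins and proteoglycans, which organise the collagen matrix, 5 were called lower and 0 higher (median -0.34). Sparcl1, an anti-adhesive protein, read 0.79, 1.76 and 2.35 in early cells and -1.64, -0.76 and -0.52 in late cells. The collagen-binding proteoglycan Lum, the elastic fibre protein Fbln5, Tnxb and the adhesion protein Tgfbi fell by 2.61, 1.78, 1.67 and 1.47. Lox, which crosslinks collagen and elastin, read -0.18, -0.64 and 0.34 in early cells and -4.31, -5.28 and -5.79 in late cells, and fell by 4.97 (standard error 0.51), and its second probe fell by 3.90. It was the only one of 20 counted collagen processing enzymes to be called (median -0.34).

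The fibrillar collagens that make up bone did not pass the test. Col1a1 read 4.93, 5.14 and 5.29 in early cells and 4.74, 5.17 and 4.97 in late cells, and the log2 change was -0.16 (standard error 0.30). Col1a2 had a change of -0.61 (standard error 0.58) from 1 early and 2 late arrays, as its spots were flagged on the others. Col10a1, the collagen of hypertrophic cartilage, was the only one of 11 counted genes of the fibrillar and network collagen list to be called (median 0.08), as the collagens of the basement membrane are in that list. It read -5.48, -5.29 and -4.88 in early cells and -2.83, -2.79 and -2.32 in late cells, and the call was lost after normexp background correction. Fn1 read from 4.88 to 5.09 in early cells and from 4.54 to 5.21 in late cells. Of 18 counted matrix proteases and inhibitors (median -0.17), Mmp11 alone was called, with a change of -1.01 that lay at the 2-fold limit.

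Cell adhesion and contractile genes followed with fewer calls. Of 30 counted integrins and focal adhesion genes 1 rose and 3 fell (median -0.20). Itga11, a collagen receptor of mesenchymal cells, read 3.87, 3.50 and 4.13 in early cells and 2.12, 2.21 and 2.30 in late cells, and Itga1, another collagen receptor, fell by 1.40. Itga8, a receptor for nephronectin, read -1.38, -1.62 and -1.05 in early cells and 0.23, 0.24 and 0.28 in late cells. The change of Itgb7 was -1.08, and its call was lost with the centring. Of 24 contractile and cytoskeletal genes (median -0.45), Tpm2, Acta2 and Myl9 fell by 2.39, 1.66 and 1.33, and Des, the intermediate filament of muscle, rose by 1.86, a call that was lost after normexp background correction. Early replicate 2 has no value for Acta2 and Myl9 because its spots were flagged, and with these spots kept the change of Myl9 was -0.71 and was not called. Of the 9 skeletal muscle markers, 2 were well above background in early and 4 in late cells. Myod1 and Myog were on no array, and the summed level of the list, relative to the 75th percentile, ranged from 0.698 to 1.99 in early and from 0.544 to 1.46 in late cells.

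**Figure D4:**
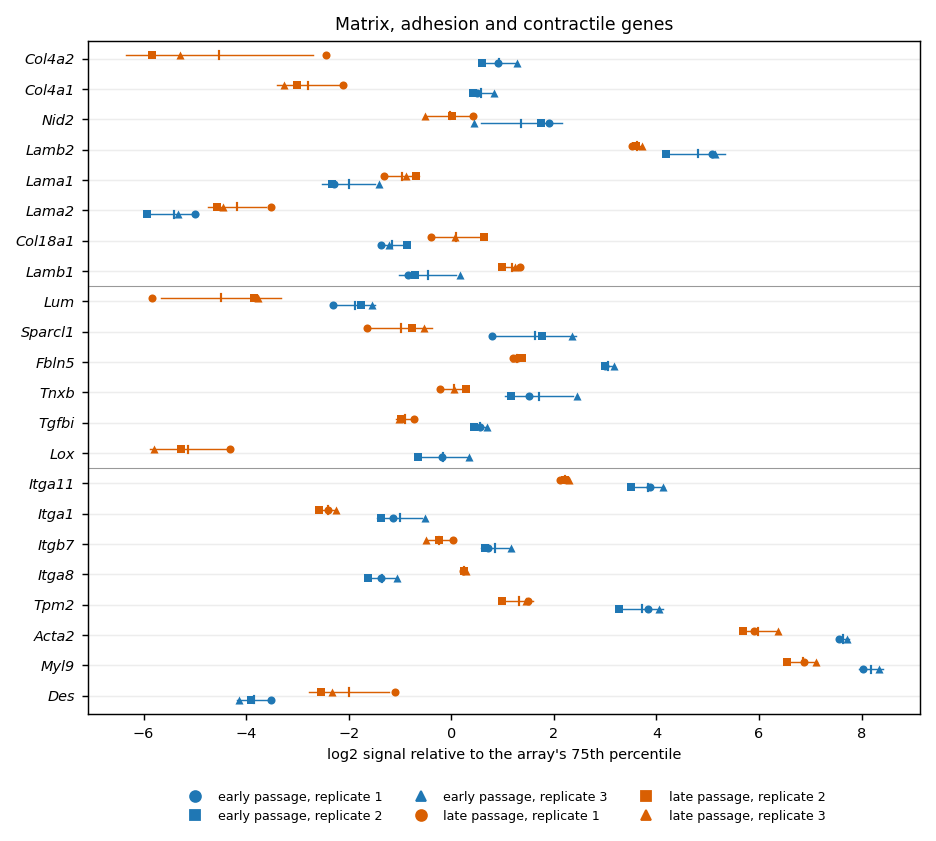
Log2 signal relative to the array's 75th percentile (x axis) of the called genes of the basement membrane list (upper block), the matricellular and collagen processing lists (middle) and the integrin and contractile lists (lower), with blue early and orange late Dunn arrays, the replicate as symbol shape, and mean and SD. The 2 collagen IV chains and Lox show the widest gaps, and in the upper block the late mean lies to the left for 4 genes and to the right for 4.

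Osteoblast genes were called at a share near that of all counted genes. Of 19 counted genes (median -0.19), 1 (5.26%) was called, against 7.12% of all counted genes. It was Mgp, an inhibitor of calcification, with a change of -1.11, and its call was lost under 6 of 23 alternatives. Pth1r, the parathyroid hormone receptor, had a change of -0.99 (standard error 0.33), just short of 2-fold. Runx2, the master regulator of the lineage, read 0.23, -0.32 and 0.64 in early cells and -0.85, 0.06 and 0.08 in late cells. Sp7, which acts downstream of Runx2, read from 2.27 to 3.11 in early cells and from 2.74 to 3.26 in late cells. The matrix proteins Ibsp and Spp1 had changes of -0.26 (standard error 0.40) and 0.32 (standard error 0.44), and the phosphatase Alpl of 0.19 (standard error 0.48). In each of these genes the passages overlapped. Bglap had no matched probe. Of the mesenchymal markers, S100a4 fell by 1.86 and Vim, Fn1 and Twist1 were not called. Chondrocyte genes were rarely counted (6 of 17 with a probe, median 0.28), and 2 of them rose, Hapln1 and Col10a1. Of 9 counted cadherins and mesenchymal transition factors (median 0.003) Twist2 alone was called, and of 7 counted adipocyte genes 0 were (median -0.22, 0 at an unadjusted p under 0.05 in limma).

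Pathways that pattern tissue showed single members in both directions. In the Wnt pathway 5 of 36 counted genes rose and 2 fell (median -0.22). The ligand Wnt6 read -0.34, 0.98 and -0.73 in early cells and 2.02, 3.01 and 1.86 in late cells, and the ligand Wnt10a rose by 1.11. Lef1, a transcription factor of the pathway, read -3.30, -3.97 and -3.53 in early cells and -1.52, -1.69 and -2.47 in late cells, a rise that was no longer called after normexp background correction. The secreted inhibitors Wif1 and Sfrp4 had changes of 3.33 and 1.37. Wif1 has no value on the third replicates, whose spots were flagged, and was not called with these spots kept. The call of Sfrp4 was lost under 9 of 23 alternatives. Nkd2, an inhibitor inside the cell, and the agonist Rspo3 fell by little more than 2-fold, and both calls were lost with the centring. Genes that feed the pathway and genes that restrain it were thus among the rises, but the calls of Wif1 and Sfrp4 depended on the setting.

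In the FGF pathway 1 of 19 counted genes rose and 2 fell (median -0.04). With the centring 3 rose and 2 fell, and with flagged spots kept 4 rose and 2 fell. The ligand Fgf15 read -0.89, -1.07 and -0.58 in early cells and -2.47, -4.45 and -4.92 in late cells, and the ligand Fgf18 fell by 1.62 by its brighter probe and by 0.70 by the other, which was not called. Etv4, a transcription factor induced by FGF signals, read 0.07, -0.05 and 0.51 in early cells and 2.98, 3.13 and 2.10 in late cells, and its 2 probes rose by 2.56 and 2.79. In the TGF-beta and BMP list 1 of 35 rose and 4 fell (median -0.24). Both with the centring and with flagged spots kept, 3 rose and 3 fell. The ligands Bmp5, Tgfb3 and Tgfb1 fell by 1.50, 1.28 and 1.09. The activin-binding protein Fstl3 fell by 2.02 and Fstl1 rose by 2.21, with no value on early replicate 2. Of 33 growth factor signals of the PDGF, VEGF, IGF and ephrin list (median -0.25), 2 fell, the secreted protein Angptl2 and Igf1 itself. Angptl2 fell by 1.51. Igf1 fell by 1.44, and 2 other probes of it fell by 1.46 and 1.37.

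In the Notch list, 1 of 14 counted genes rose and 2 fell (median -0.05). The ligand Dll3 and the target Hey1 fell by 1.39 and 1.06, and the call of Hey1 was lost with the centring and without slide 1. The brighter probe of the receptor Notch2 had a change of 2.25 from 1 early array, 0.78 when its flagged spots were kept, and 1.69 with the slide as a block, in which case it was not called. Its other probe had a change of -0.50. Of 11 counted Hedgehog genes (median -0.39), 0 were called in limma and 0 had an unadjusted p under 0.05. Of 30 counted Hox and limb patterning genes (median -0.37), 2 rose and 5 fell, among them Hoxc8 (change -1.58), Hoxb8 (-1.63) and Shox2 (1.66). With the centring 3 genes of this list rose and 2 fell, and with flagged spots kept 3 rose and 1 fell. Of 16 axon guidance genes (median 0.06) 2 rose, Sema6a and Unc5c, by 1.47 and 1.42. The rises of Unc5c and Shox2 turned to -0.27 and -0.08 after normexp background correction.

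Of 32 counted genes of oxidant defence and xenobiotic metabolism, 5 fell and 1 rose (median -0.34). Nqo1, a quinone reductase, read -0.96, -0.93 and -1.40 in early cells and -3.03, -4.33 and -4.47 in late cells, and fell by 2.85 (standard error 0.48). Mgst1 and Gstm1, which conjugate glutathione, fell by 1.98 and 1.27, Gpx3, a secreted peroxidase, by 1.65, and the drug exporter Abcg2 by 1.18. These 5 genes had an adjusted p under 0.05 in the fit over probes well above background. Cyp1b1 rose by 1.46. Hmox1, another gene of oxidant defence, had a change of 0.12 with a wide spread.

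Metabolic lists differed in their share of calls. Of 34 counted glycolysis and hypoxia genes 1 rose and 4 fell (14.7%, median -0.29), against 7.12% called over all counted genes. Epas1, the hypoxia-inducible factor HIF-2 alpha, read 4.51, 4.46 and 4.57 in early cells and 2.33, 2.73 and 2.80 in late cells, and of its 2 other probes 1 fell by 2.22 and 1, with a change of -0.56, was not called. Aldoc, a glycolytic aldolase, read -1.28, -0.80 and -0.90 in early cells and 2.08, 1.56 and 1.57 in late cells. Pfkp, Bnip3 and the lactate transporter Slc16a3 fell by 1.25, 1.21 and 1.06. Atp5a1, of the ATP synthase, was the single call among 31 counted genes of oxidative phosphorylation (median -0.26), with -0.29, -1.87 and 0.22 in early cells and 3.19, 3.06 and 1.81 in late cells. In limma 0 of 29 cholesterol and fatty acid synthesis genes (median -0.13) and 0 of 32 ribosomal protein genes (median -0.35) were called, and 0 and 1 of them had an unadjusted p under 0.05. Of 31 genes of the amino acid and unfolded protein response (median -0.25), Dnajb9 alone was called, at the 2-fold limit.

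Few genes of cell division were called, where the share over all counted genes was 7.12%. Of 33 counted DNA replication genes 0 were called in limma (median -0.01, 0 at an unadjusted p under 0.05), and of 32 mitosis genes (median -0.27) 1 was, Cdc25b. The proliferation marker Mki67 read 3.50, 4.03 and 6.23 in early cells and 3.50, 3.56 and 5.11 in late cells, with the highest value of each passage on the third slide. Among 30 counted cell-cycle inhibitors and genes of the p53 and Rb axis (median -0.12), Ccnd2 was the single call. Cdkn1a had a change of -0.66 (standard error 0.30) and Trp53 of -0.49 (standard error 0.41). Of 31 counted genes of DNA methylation and chromatin silencing (median -0.12), the remodeller Smarca1 fell by 1.31, and of 10 counted imprinted genes 0 were called in limma (median 0.13, 2 at an unadjusted p under 0.05). Of 20 immediate early and heat shock genes (median -0.25) 1 was called, Fosl2, with a change of -3.23 by its brighter probe and 0.57 by the other. Of 6 counted germline genes (median -0.07), Catsperz fell and Rhox5 rose. Actb and Gapdh, among 16 reference genes with 0 calls in limma (median -0.30, 1 at an unadjusted p under 0.05), had changes of -0.33 (standard error 0.57) and -0.54 (standard error 0.45).

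The change with passage was compared with that of LM8, from passage 24 to 91, by testing, over the 12 arrays together, whether it depended on the line. Of the 11112 genes counted in Dunn cells, 99 (0.891%) had a change that differed between the lines at an adjusted p under 0.05. Of the 90 called genes named by rule, 17 did. The change of Irs2, Cyba, Lox and C2 was below 0 in both lines and further below it in Dunn cells. That of Catsperz, Cd99, Tdrp and Lcn9 was also further below 0 in Dunn cells. In LM8 cells the changes of these last genes had an unadjusted p above 0.05 in limma. Signal levels of LM8 cells are not given here, and a gene near the floor at passage 24 could not show a large fall. Rgs2 fell by 6.19 in Dunn cells and had a change of 1.22 in LM8 cells. For Cd99 the log2 change was -8.25 in Dunn and -0.64 in LM8 cells, and for Cyba it was -5.31 and -1.24. The change of Dnali1 and Ccnd2 was further above 0 in Dunn cells, with 4.24 against 0.47 for Ccnd2. In LM8 cells both changes had an unadjusted p above 0.05 in limma. Eps8 rose by 4.02 in Dunn cells and had a change of -0.57 in LM8 cells. Itga11 fell further in LM8 cells (-1.62 in Dunn and -4.52 in LM8 cells), and Rhox5 rose further there (3.39 and 5.83). Gpx3 fell by 1.65 in Dunn cells and had a change of 0.21 in LM8 cells. Itga8 and Lamb1 rose in Dunn cells by 1.60 and 1.65 and had changes of -0.45 and -1.31 in LM8 cells. For Lxn and Twist2 the interaction did not pass the test, with changes of -7.81 and -7.32 in Dunn and -9.92 and -6.35 in LM8 cells. Nor did it for the interferon genes Oas1a (-2.46 and -4.99) and Oasl2 (-2.74 and -4.75), where a p above the threshold does not show equal changes.

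**Figure D5:**
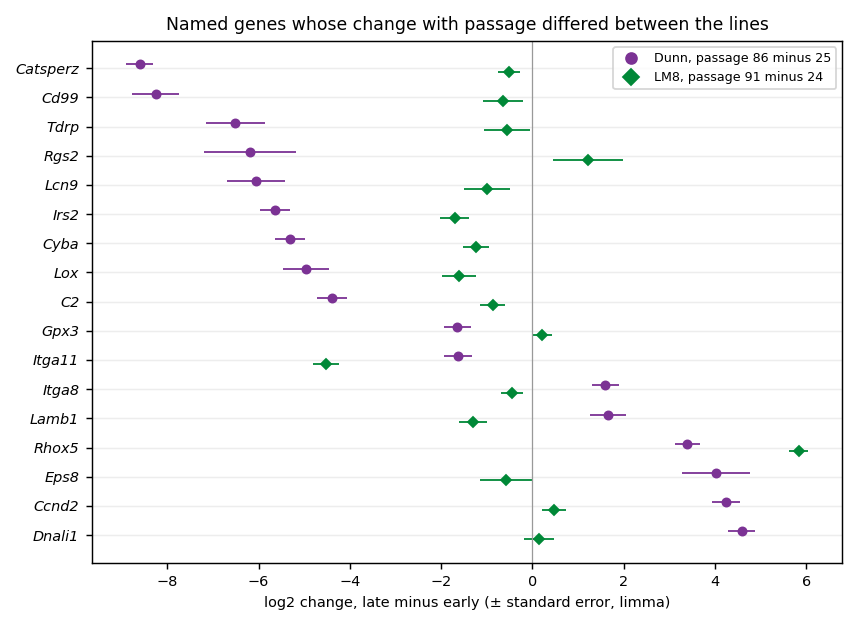
Log2 change from early to late passage (x axis, with the standard error from limma) of the 17 named genes whose change differed between the lines, in Dunn cells (purple circles) and LM8 cells (green diamonds). For the upper 9 genes the Dunn change is further below 0 than the LM8 change, while for Itga11 and Rhox5 the LM8 change is further from 0.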

How the data were processed

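RNA of early and late Dunn and LM8 cells was hybridised to 12 single-colour arrays (mouse 4x44k v2). The authors deposited Agilent Feature Extraction 10.7.3 output, whose processed signal is a background-subtracted intensity, unscaled between arrays. A deposited table of all arrays holds the same intensity, rounded. Depth is signal over background: 39.4% to 59.7% of probes were well above background on a Dunn array, and 3 arrays per group limit the precision.

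Outlier-flagged spots were left out and 43020 spots averaged into 39429 probes. Their log2 signals were set relative to each array's 75th percentile. By accession, 26575 probes (67.4%) matched 20140 genes of GRCm38.p6. Dunn arrays were fitted with limma 3.58.1 in R 4.3.3 (lmFit, eBayes) over all probes, and all 12 arrays for the interaction of line and passage. Promoters came from RefSeq. The normexp alternative (offset 50) used median spot signals. The lists and their members were chosen with earlier results of these data known. Named genes were the 12 largest rises and falls that were called, without overlap and over 2-fold on each slide, up to 4 called genes per list, and 12 genes of the study's text or the osteoblast lineage. Others were named after their values were seen. A group whose 3 arrays were not well above background got a bound: the brighter mean against the mean of the higher of its own signal and the lowest signal well above background on each array.

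Replicate numbers mark the slide (1 array of each group per slide, always at the same position, so position and group cannot be told apart). Over all probes, deviations of same-numbered early and late arrays correlated at 0.678, 0.636 and 0.226, but early replicate 2 with late replicate 3 at 0.431. Over probes well above background on all 6 arrays, same-numbered arrays correlated at 0.250, 0.405 and 0.290. All other pairs were below 0 there, so the numbers were taken to pair the samples. The main fit does not use this pairing, and the fit with the slide as a block does. The fit was also run on simulated data, whose values are not given here. Some genes of the lists are counted but not reported here by name.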

Additional observations from a re-analysis of the deposited data

Results flagged for a closer look

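The change with passage differed between Dunn and LM8 cells for 17 of the called genes named by rule, by the interaction of line and passage in limma, with an adjusted p under 0.05. Values are the log2 change in Dunn cells minus that in LM8 cells. The difference was -8.09 for Catsperz, -7.62 for Cd99, -7.40 for Rgs2, -5.96 for Tdrp, -5.06 for Lcn9, -4.07 for Cyba, -3.93 for Irs2, -3.52 for C2, -3.35 for Lox and -1.85 for Gpx3, all of which fell in Dunn cells. In LM8 cells the change of Rgs2 was 1.22 and that of Gpx3 0.21, and the others were below 0 there too. For Catsperz, Cd99, Tdrp and Lcn9 the LM8 change had an unadjusted p above 0.05 in limma. It was 4.60 for Eps8, 4.44 for Dnali1, 3.78 for Ccnd2, 2.96 for Lamb1 and 2.05 for Itga8, which rose in Dunn cells. In LM8 cells the changes of Eps8, Lamb1 and Itga8 were below 0, and of these only that of Lamb1 had an unadjusted p under 0.05 in limma. For Itga11 it was 2.89, as the fall was smaller in Dunn cells, and for Rhox5 -2.44, as the rise was smaller. The second probe of Eps8 was too dim to be counted. With 3 arrays in a group no single array was tested as an outlier.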

How the results depend on the processing

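Of the 791 genes called, the number stayed within 1.5 times under all alternatives other than the unscaled table (1453 genes, 1373 higher and 80 lower) and array weights (1424, 447 higher and 977 lower). With the replicate block 909 were called. Leaving out each array in turn gave 533 to 1044 genes, 163 to 347 higher and 370 to 697 lower. Higher calls were 153 with normexp, 374 in 1 fit over 12 arrays, 111 with probes well above background on all 6 arrays, and 391 with the replicate block over probes well above background. Lower calls were 360 with flagged spots kept. At an adjusted p under 0.05 and over 2-fold, 1 gene in the fit over all probes became 60 with quantile normalization, 11 with normexp, 191 over probes well above background, 99 with array weights, 157 with a variance trend, 54 without slide 1, 323 in 1 fit over 12 arrays, 8 with the mean of probes and 2 by the methods' t-test. It became 53 with the replicate block, 235 with a variance trend and 134 without late replicate 1, each over probes well above background. It became 0 with a floor on dim signals, the replicate block, or probes well above background on all 6 arrays (1140, 1358 and 1039 genes at an unadjusted p under 0.05), and 0 to 24 leaving out 1 array, with 24 without late replicate 1. For the difference between the lines, 118 of 12623 genes became 228 with quantile normalization, 59 unscaled, 68 with normexp, 296 over probes well above background, 528 with array weights, 184 with a variance trend, 78 without slide 1, 49 with probes well above background on all 12 arrays, 101 with the replicate block, and 47 to 219 leaving out 1 array. The lowest counts came without LM8 late replicate 2 or 3 (47 each) and the highest without late Dunn replicate 1. Of the 90 called genes named by rule, 2 changed sign, Unc5c (-0.27) and Shox2 (-0.084), both with normexp, and no other did under any alternative. The replicate block ended the call of 2 of them, Notch2 (1.69) and Cdc25b (-1.08). The causes were not tested. Fits that keep spots flagged as outliers or combine an alternative with the probes well above background were chosen after the data were seen. Signals near the background limit dim genes, whose spread between arrays is widest.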
